A study of Homo sapiens with 6 samples.

Results

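The MAGE genes (melanoma antigen family) were examined in 6 RNA sequencing libraries of PANC-1, an established human cell line from a pancreatic ductal carcinoma. Members were the rows of the deposited count table whose symbol is MAGE, a letter from A to L and optional digits or letters, without antisense genes and pseudogenes. This took 35 of 60623 genes, of which 26 were type I (12 MAGE-A, 11 MAGE-B and 3 MAGE-C genes) and 9 were type II (4 MAGE-D, 2 MAGE-E and 1 each of MAGE-F, MAGE-H and MAGE-L). Another 6 rows with a MAGE symbol were antisense, pseudogene or read-through entries and were left out. The shSTN1 group is 3 libraries whose cells carried an shRNA (short hairpin) directed at STN1, a subunit of the telomere-associated CST complex. The shControl group is 3 libraries from cells with a control hairpin, named scramble in the table. The genotype field of shSTN1 replicates 2 and 3 reads STN2 and STN3 knockdown, and their titles, which read shSTN1, were used. The labels call the libraries biological replicates and say nothing of separate cultures or clones, so the spread behind each p-value is that of the 3 libraries of a group and could be technical.

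All MAGE proteins share a MAGE homology domain, through which several bind RING-type ubiquitin ligases and change what those ligases modify. Type I genes lie in clusters on the X chromosome. They are normally transcribed in the testis and are otherwise kept silent, largely by promoter DNA methylation, and many tumours express some of them, which is why their peptides are known as cancer-testis antigens. Type II genes are transcribed in many tissues and serve in neuronal development, protein sorting and DNA repair.

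The libraries stood far apart, and the targeted gene did not separate them at the library scaling used here (TMM). STN1 had 303, 306 and 275 reads in the shSTN1 libraries and 387, 346 and 278 reads in the shControl libraries. Its log2 fold change was -0.15 (edgeR adjusted p = 0.253). Relative to raw total counts the groups do not overlap, with shSTN1 lower. The closest libraries had 275 reads of 18813591 (shSTN1 replicate 3) and 278 of 17357223 (shControl replicate 3). Scaling by raw totals was not tested, so every direction here is between libraries as labelled. All 10 ductal carcinoma line markers had reads in both groups, with a summed level of 5710 to 5840 CPM (read counts divided by the TMM-scaled library size in mega-reads) in the shSTN1 libraries and 943 to 1000 CPM in the shControl libraries. The 8 of them that were tested were higher, and S100P was near 0 in both groups. Among all tested genes 35.6% were higher and 38.5% lower (edgeR adjusted p under 0.05). Of 8 embryonic kidney line markers, 6 were lower and 1 higher, HMX1, SALL1 and EYA4 had 0 reads in the shSTN1 libraries, and the list summed to 80.7 to 84.0 CPM there against 603 to 692 CPM in the shControl libraries. The germ cell markers DAZL, PRM1, PRM2, TNP1, TEX101 and ZPBP had 0 reads in all 6 libraries, and the list of 10 summed to 0.183 to 0.391 CPM in the shSTN1 libraries and 0.626 to 1.2 CPM in the shControl libraries. Leukocyte markers (6 genes) summed to 1.74 to 2.10 CPM in the shSTN1 libraries and 4.23 to 5.37 CPM in the shControl libraries, and fibroblast markers (6 genes) to 145 to 161 CPM and 64.1 to 78.3 CPM. The part of these differences in the MAGE values was not tested, and an effect of the hairpin and a difference in the cells cannot be told apart. In bulk RNA, fewer cells that express a gene and less RNA per cell cannot be told apart either.

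The 120 bases before the transcription start are shown for the type I gene that rose and for a type I pair of near-identical copies. They are also shown for a type II gene that rose. Which genes short reads can separate depends on transcript sequence, which is compared further below. Letters are from RefSeq (GRCh38.p14, the strand of the gene, first start listed), with CpG dinucleotides in capitals.
MAGEA4 (chrX:151912354-151912473, plus strand): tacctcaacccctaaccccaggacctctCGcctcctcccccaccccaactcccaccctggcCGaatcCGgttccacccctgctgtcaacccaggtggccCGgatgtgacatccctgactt
MAGEA3 (chrX:152698674-152698793, plus strand): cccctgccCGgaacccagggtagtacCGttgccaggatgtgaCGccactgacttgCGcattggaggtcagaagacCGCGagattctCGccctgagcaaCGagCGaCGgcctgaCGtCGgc
MAGEA6 (chrX:152769690-152769809, minus strand): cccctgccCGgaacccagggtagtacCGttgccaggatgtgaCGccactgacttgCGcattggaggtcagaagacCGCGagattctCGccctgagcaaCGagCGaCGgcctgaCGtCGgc
MAGEF1 (chr3:184712065-184712184, minus strand): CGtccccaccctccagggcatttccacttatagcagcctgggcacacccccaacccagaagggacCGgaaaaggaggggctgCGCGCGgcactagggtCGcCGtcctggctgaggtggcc

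The MAGEA3 and MAGEA6 stretches are letter for letter the same, and so are the 250 bases before each start (0 mismatches). MAGEA4 holds 4 CpG dinucleotides in its stretch, against 12 each in MAGEA3 and MAGEA6 and 7 in MAGEF1. RefSeq windows of 300 bases (250 before and 50 after the start) were found for 31 of the 35 members, 23 of them type I. The 5 MAGEA4 windows held 10 to 15 CpG dinucleotides, and the printed start is the one with 10. The MAGEA3 and MAGEA6 windows held 19 each and the MAGEF1 window 21. Which start these cells use was not tested. The median CpG count was 12 over the 31 type I windows, 12 over the 11 type II windows, and 14 over all 35116 windows, where a gene can have several starts. The letters CCGGAA, which contain the GGAA core bound by ETS factors, or their reverse complement TTCCGG occurred in 4 type I windows (12.9%), in 3 type II windows (27.3%) and in 17.2% of all windows. They stand at base -113 in both MAGEA3 and MAGEA6 and at base -56 in MAGEF1, counted back from the start, and are in none of the 5 MAGEA4 windows.

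Type I members were nearly silent in all 6 libraries. Of 26 genes, 11 had 0 reads in every library (MAGEA2B, MAGEA9, MAGEB1, MAGEB3, MAGEB4, MAGEB5, MAGEB6B, MAGEB10, MAGEB16, MAGEB17 and MAGEC2). Another 7 had reads in the shControl libraries and 0 in the shSTN1 libraries, with 2 to 4 reads each over the group, and 8 had reads in both groups. No type I gene was seen in the shSTN1 libraries alone. Thus 18 of the 26 type I genes had 0 reads in shSTN1 and 11 in shControl. Over all 60623 genes, 30412 had 0 reads in shSTN1 and 28822 in shControl. The number of type I genes with a read was 5, 6 and 5 in the shSTN1 libraries and 13, 9 and 10 in the shControl libraries, at total counts of 18813591 to 23336942 in shSTN1 and 17357223 to 20660453 in shControl. Over all genes, 25379, 26021 and 25342 had a read in the shSTN1 libraries and 26998, 27296 and 26324 in the shControl libraries. The number was lower in shSTN1 there too, but by a smaller share. Genes with similarly few reads were not compared, so the type I share is not set apart from theirs. A count of 0 allows up to 0.134 to 0.170 CPM per library, from 3 counts, so the missing genes were below detection and not shown to be absent. Such floors, and the ratio intervals below, cover counting error only.

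Of the 35 members, 7 had enough reads to pass the low-count filter and be tested, 2 of them type I and 5 type II. By edgeR's quasi-likelihood test with adjustment over all 17451 genes, 3 of the 7 members rose and 3 fell in shSTN1 at an adjusted p under 0.05. The background was high, since 74.1% of all tested genes passed, 35.6% higher and 38.5% lower, and since the groups did not overlap for 75.6% of tested genes and for 6 of the 7 members. A count near that background does not set the family apart. The median log2 fold change was 0.07 over the 7 members and -0.03 over all tested genes.

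**Figure D1:**
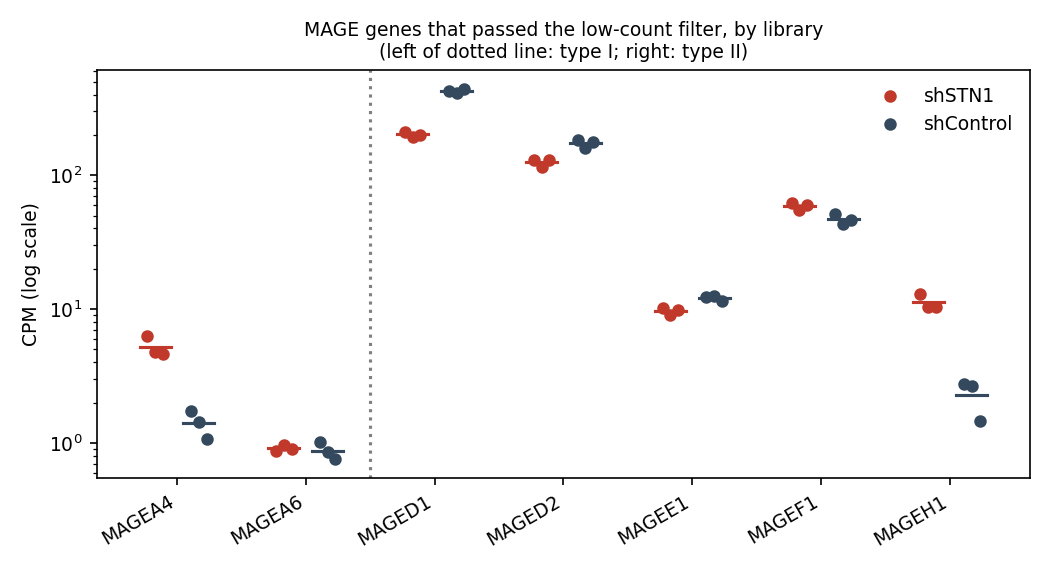
Level of the 7 tested MAGE genes in each library, in CPM on a log scale, with shSTN1 libraries to the left of shControl libraries for each gene and a bar at the mean of 3. MAGEA4 and MAGEH1 lie higher in all 3 shSTN1 libraries, MAGED1 lies lower, and MAGEA6 overlaps.

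The type I gene MAGEA4, a cytoplasmic and nuclear antigen used as a target of engineered T cells, rose. It had the most reads of any single type I gene in every library. Per kilobase of exon, its CPM in shControl was 0.46 ± 0.105, level with MAGEA6 at 0.469 ± 0.0685. MAGEA4 (ENSG00000147381.11, chromosome X, positions 151912509 to 151925170 in GRCh38) had 128, 104 and 82 reads in the shSTN1 libraries and 36, 32 and 20 reads in the shControl libraries. All 3 shSTN1 libraries lay above all 3 shControl libraries. The level was 5.22 ± 0.892 CPM in shSTN1 and 1.42 ± 0.325 CPM in shControl (SD, n = 3 libraries each), a log2 fold change of 1.87 (SE 0.223, edgeR adjusted p = 1.11e-08). An exact two-sided permutation test of log2 CPM gave p = 0.1, the smallest that 3 against 3 libraries allow. The antisense gene MAGEA4-AS1, which overlaps MAGEA4, had 2, 3 and 4 reads in the shSTN1 libraries and 0 in each shControl library. The strand setting of the counting is not given in the sources used here, so reads of these genes may be exchanged.

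MAGEA6, which with its near-copy MAGEA3 directs the ligase TRIM28 to the energy sensor AMPK, did not pass. It had 18, 21 and 16 reads in the shSTN1 libraries and 21, 19 and 14 reads in the shControl libraries. The groups overlap. On the log2 scale the difference was 0.07 with an SE of 0.108 (edgeR adjusted p = 0.878). Its 95% interval by limma-voom, -0.66 to 0.81, does not show the levels to be equal. The MAGEA4 to MAGEA6 ratio of reads within a library was 7.11, 4.95 and 5.12 in shSTN1 and 1.71, 1.68 and 1.43 in shControl, without overlap (exact two-sided permutation p = 0.1, the smallest possible).

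MAGEA3 fell under the low-count filter, with 1, 11 and 1 reads in the shSTN1 libraries and 21, 6 and 13 reads in the shControl libraries. Replicate 2 of shSTN1 lies inside the shControl range and the other 2 lie below it. Summed over libraries, 13 against 40 reads gave a ratio of 0.334 (95% exact interval 0.164 to 0.637, counting error only), and the exact permutation p was 0.2. Of all stretches of 100 bases in MAGEA3 transcripts, 34.9% also occur in MAGEA6 transcripts, and of stretches of 50 bases 54.9% do. How the authors counted reads that fit both copies is not given in the sources used here. Taken as 1 unit, MAGEA3 and MAGEA6 had 19, 32 and 17 reads in shSTN1 and 42, 25 and 27 reads in shControl, which overlap (ratio 0.743, 95% exact interval 0.536 to 1.03, exact permutation p = 0.3).

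MAGEA11, a coactivator of the androgen receptor, had 0, 2 and 0 reads in the shSTN1 libraries and 11, 6 and 8 reads in the shControl libraries. The groups do not overlap, and the level was 12.2-fold lower in shSTN1 (95% exact interval 3.03 to 106, exact permutation p = 0.1). Its transcripts share 0% of stretches of 100 bases with other genes. MAGEA1, the first antigen of the family to be cloned, had 6, 4 and 4 reads in shSTN1 and 6, 3 and 0 in shControl, which overlap. MAGEA12 had 0, 7 and 0 reads in shSTN1 and 1 in each shControl library. The 7 MAGEA12 reads and the 11 MAGEA3 reads came from the same shSTN1 library, replicate 2.

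**Figure D2:**
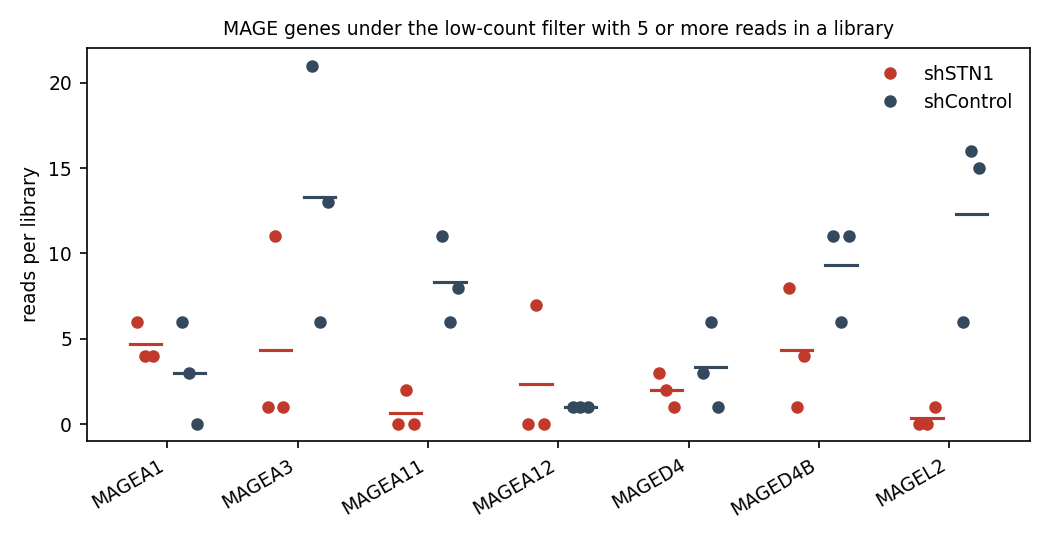
Reads per library for the 7 MAGE genes that did not pass the low-count filter and had at least 5 reads in a library, with shSTN1 libraries to the left of shControl libraries and a bar at the mean of 3. MAGEA11 and MAGEL2 do not overlap between groups, and MAGEA3 and MAGEA12 are high in shSTN1 replicate 2 alone of its group.

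MAGE-B and MAGE-C genes gave a trace in the shControl libraries. MAGEB2, MAGEB6 and MAGEB18 had 3, 4 and 3 reads over those 3 libraries, and MAGEC1 and MAGEC3 had 4 and 2. All 14 genes of these subfamilies had 0 reads in the shSTN1 libraries. Even for MAGEC1, seen in each shControl library at 2, 1 and 1 reads, the fold was no more than bounded, at least 1.30-fold lower in shSTN1 from a floor of 3 reads over the group. MAGEA2 with MAGEA2B, and MAGEA9 with MAGEA9B, are copies that share 79.9% to 89.7% of their stretches of 100 bases, so their 0 to 2 reads per library are uncertain.

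All 9 type II members had reads. All 5 that were tested passed, 2 higher and 3 lower, where 74.1% of all tested genes passed, and their median log2 fold change was -0.33, beside -0.03 over all tested genes. The summed level of type II genes was 427, 385 and 410 CPM in the shSTN1 libraries and 676, 630 and 680 CPM in the shControl libraries. Type I genes summed to 7.52, 6.83 and 5.96 CPM in shSTN1 and 5.29, 3.18 and 3.58 CPM in shControl. Neither sum overlapped between groups at the TMM scaling, and the log2 difference was -0.70 for type II and 0.75 for type I. Relative to raw totals, 2 libraries are nearly level in type I reads. These are shSTN1 replicate 3 (105 of 18813591 counts) and shControl replicate 1 (110 of 19549971). The type I difference was that of MAGEA4. The 24 type I genes that were not tested lay the other way, at 0.629 ± 0.407 CPM in shSTN1 and 1.73 ± 0.828 CPM in shControl (SD, n = 3 each), with overlap between the groups.

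MAGED1, also called NRAGE, an adaptor of the p75 neurotrophin receptor in cell death and a coactivator of transcription factors, made up most of the difference in type II. MAGED1 (ENSG00000179222.17, chromosome X, positions 51803007 to 51902357) had 4318, 4241 and 3533 reads in the shSTN1 libraries and 8869, 9195 and 8163 reads in the shControl libraries. Every shSTN1 library was below every shControl library. The level was 202 ± 8.38 CPM in shSTN1 and 427 ± 15.4 CPM in shControl (SD, n = 3 each), or 47.3% of shControl (log2 fold change -1.08, SE 0.0458, edgeR adjusted p = 1.42e-16). MAGED1 took 49.0% to 50.5% of type II reads in shSTN1 (95% Wilson intervals within 47.8% to 51.5%) and 63.1% to 65.3% in shControl (62.3% to 66.1%). MAGEA4 took 69.8% to 83.1% of type I reads in shSTN1 (intervals within 62.0% to 88.2%) and 30.3% to 45.1% in shControl (20.6% to 56.6%).

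MAGED2, which in the kidney sustains salt transporters and whose loss causes a transient Bartter syndrome, fell less. MAGED2 (ENSG00000102316.17, chromosome X, positions 54807599 to 54816012) had 2669, 2529 and 2266 reads in shSTN1 and 3792, 3543 and 3273 in shControl. The level was 125 ± 7.90 CPM in shSTN1 and 173 ± 12.6 CPM in shControl (log2 fold change -0.47, SE 0.0820, edgeR adjusted p = 3.35e-07), without overlap. The MAGED1 to MAGED2 ratio of reads was 1.62, 1.68 and 1.56 in shSTN1 and 2.34, 2.60 and 2.49 in shControl (exact permutation p = 0.1, the smallest possible). Per length, as RPKM (CPM divided by exon length in kilobases), the order of the 2 genes differed between groups. MAGED2 stood at 42.5 ± 2.69 RPKM above MAGED1 at 33.6 ± 1.39 RPKM in the shSTN1 libraries, and MAGED1 at 71.0 ± 2.57 RPKM above MAGED2 at 58.8 ± 4.29 RPKM in the shControl libraries, with no overlap between the genes in either group.

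MAGED4 and MAGED4B are copies on opposite strands of Xp11 and share 95.6% to 98.1% of their stretches of 100 bases. They had 11, 3 and 5 reads together in shSTN1 and 14, 12 and 12 in shControl, and reads that fit both copies may not have been counted. Per library size the groups overlap, with shSTN1 replicate 1 and shControl replicate 2 nearly level (ratio of the groups 0.514, 95% exact interval 0.280 to 0.914, exact permutation p = 0.2). Their values are uncertain.

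MAGEH1, a small X-linked member that binds the p75 neurotrophin receptor, rose most of the tested members. MAGEH1 (ENSG00000187601.5, chromosome X, positions 55452105 to 55453566) had 266, 225 and 184 reads in the shSTN1 libraries and 57, 60 and 27 reads in the shControl libraries. All shSTN1 libraries lay above, and shControl replicate 3 was the lowest of its group at 1.46 CPM against 2.68 and 2.74 CPM. The level was 11.2 ± 1.51 CPM in shSTN1 and 2.30 ± 0.723 CPM in shControl, 4.83-fold higher (log2 fold change 2.27, SE 0.299, edgeR adjusted p = 1.44e-12).

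MAGEF1, which binds a RING ligase subunit and takes part in the turnover of an iron-sulfur assembly factor, is the only tested member off the X chromosome. MAGEF1 (ENSG00000177383.5, chromosome 3, positions 184710367 to 184712002) had 1274, 1209 and 1054 reads in shSTN1 and 1059, 969 and 849 in shControl. The level was 59.1 ± 3.46 CPM in shSTN1 and 46.8 ± 3.86 CPM in shControl (log2 fold change 0.34, SE 0.0840, edgeR adjusted p = 5.45e-04), without overlap at the TMM scaling. Its RPKM of 36.1 ± 2.12 in the shSTN1 libraries overlapped that of MAGED1, whereas in the shControl libraries its 28.6 ± 2.36 RPKM lay below both MAGED1 and MAGED2.

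MAGEE1, part of the dystrophin-associated protein complex through alpha-dystrobrevin, fell slightly. MAGEE1 (ENSG00000198934.5, chromosome X, positions 76427724 to 76431353) had 209, 196 and 173 reads in shSTN1 and 255, 279 and 213 in shControl, or 9.67 ± 0.627 CPM in shSTN1 and 12.1 ± 0.494 CPM in shControl (log2 fold change -0.33, SE 0.0641, edgeR adjusted p = 0.0233). Without shSTN1 replicate 2 the call was lost (adjusted p = 0.105). MAGEE2 had 2, 2 and 1 reads in shSTN1 and 0 in each shControl library, at least 1.71-fold higher from 3 reads over the group.

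MAGEL2, an imprinted gene of the Prader-Willi region that acts with TRIM27 and USP7 on the WASH complex in endosomal sorting, was nearly absent from the shSTN1 libraries. MAGEL2 (ENSG00000254585.5, chromosome 15, positions 23643549 to 23647867) had 0, 0 and 1 reads in shSTN1 and 6, 16 and 15 in shControl, and missed the low-count filter. Over the group, 1 against 37 reads gave a level 36.0-fold lower (95% exact interval 6.07 to 1460, exact permutation p = 0.1). Without the filter edgeR gave an adjusted p of 1.92e-05 and DESeq2 0.00113. Its neighbour NDN had 0 reads in all 6 libraries.

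**Figure D3:**
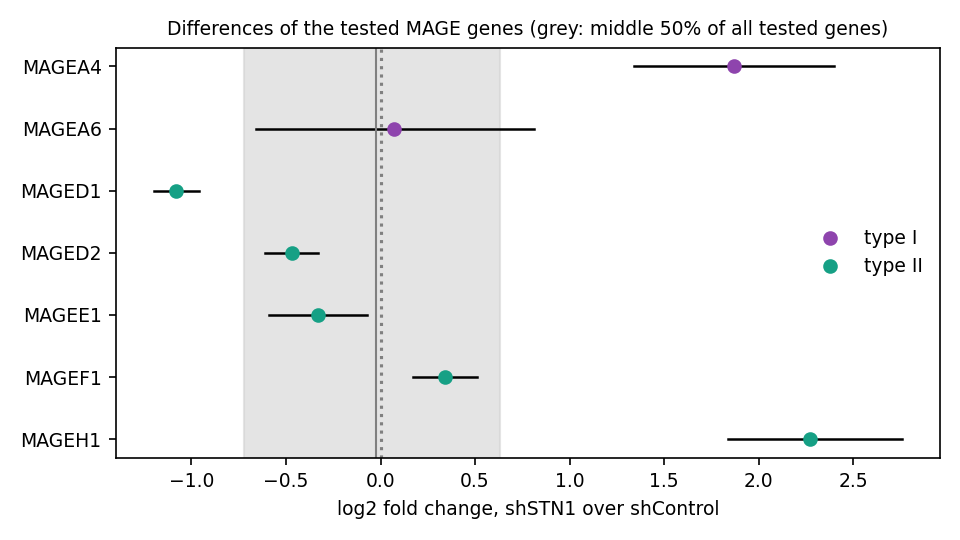
The log2 fold change of shSTN1 over shControl for the 7 tested MAGE genes (points, edgeR) with limma-voom 95% intervals (bars). The grey band spans -0.72 to 0.63, the first to the last quartile limit of all tested genes, and MAGEA4, MAGED1 and MAGEH1 lie outside it.

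**Figure D4:**
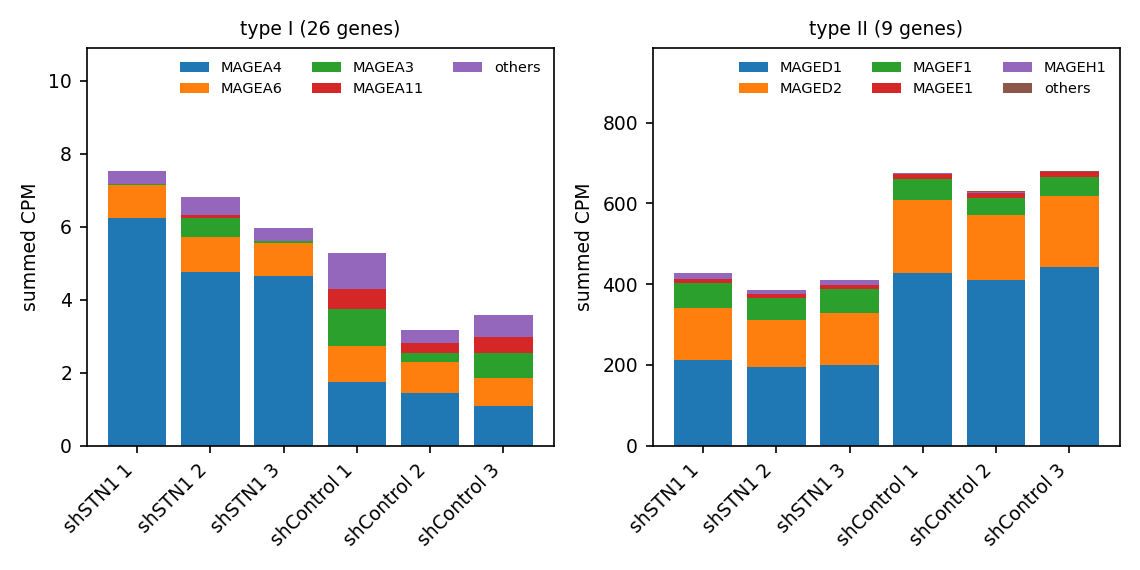
Summed CPM of the 26 type I genes and of the 9 type II genes in each library, shSTN1 on the left, stacked by gene from 0. Type I sums run from 5.96 to 7.52 in shSTN1 and from 3.18 to 5.29 in shControl, and type II sums from 385 to 427 in shSTN1 and from 630 to 680 in shControl.

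The genes around the tested members did not share 1 direction. Across the X chromosome, 557 genes were tested, and shSTN1 was higher for 150 and lower for 276 (median -0.27). Of 75 tested genes within 1 Mb of a tested member, 37 were higher and 23 lower (median 0.32). Among all tested genes 35.6% were higher and 38.5% lower. The 8 neighbours of MAGEH1 had a median of -0.06, against 2.27 for MAGEH1. The 7 neighbours of MAGEA4 had a median of 0.06, against 1.87 for MAGEA4. The 6 neighbours of MAGED1 had a median of 0.44, against -1.08, and the 11 around MAGED2 a median of -0.31, against -0.47. Around MAGEF1, 21 of 31 neighbours were higher and 6 lower, with a median of 0.53 against 0.34 for MAGEF1. The 20 neighbours of MAGEA6 had a median of 0.25, against 0.07, and the 3 of MAGEE1 a median of 0.74, against -0.33. Among those of smallest adjusted p were the phosphatase gene DUSP9 (18.4 CPM in shSTN1 and 142 CPM in shControl), the proteasome gene PSMD2 near MAGEF1 (886 CPM in shSTN1 and 414 CPM in shControl) and the kinase gene WNK3, which had 0 reads in shSTN1 and 455 in shControl, at least 148-fold lower.

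Genes that share the MAGE homology domain under other symbols were few. TRO (trophinin, MAGE-D3), known for cell adhesion at embryo implantation, had 161, 139 and 172 reads in shSTN1 and 752, 784 and 633 in shControl (log2 fold change -2.15, edgeR adjusted p = 7.69e-17). NSMCE3, the MAGE subunit of the SMC5/6 DNA repair complex, stood at 32.2 ± 1.54 CPM in shSTN1 and 34.6 ± 1.12 CPM in shControl and did not pass (adjusted p = 0.319). In the SMC5/6 list 3 of 9 genes were higher and 2 lower (median 0.18), beside 35.6% higher and 38.5% lower among all tested genes. EID3 stood at 19.2 CPM in shSTN1 and 3.66 CPM in shControl (2.40), SLF2 had a log2 fold change of 0.48, the RING subunit gene NSMCE1, which MAGEF1 binds, 0.50, and the ATPase gene SMC5 -1.30.

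Of the ligases and partners of MAGE proteins, 6 of 16 tested genes were higher and 9 lower, with a median of -0.25, beside 35.6% higher and 38.5% lower among all tested genes. SKP2, an F-box protein that degrades cell cycle inhibitors, stood at 27.2 CPM in shSTN1 and 116 CPM in shControl (log2 fold change -2.09). PJA1, the Praja RING ligase that MAGED1 binds, stood at 23.0 ± 0.928 CPM in shSTN1 and 56.2 ± 2.35 CPM in shControl (-1.29, adjusted p = 9.65e-15). It fell alongside MAGED1. DCAF12, a cullin adaptor that marks MAGEA3 and MAGEA6 for degradation, had -0.57, and the cullin gene CUL4A 0.88. TRIM28, the partner of MAGE-A and MAGE-C proteins, was chosen after its value was seen and stood at 1180 ± 7.56 CPM in shSTN1 and 852 ± 56.5 CPM in shControl (0.47, adjusted p = 5.13e-08).

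Partners of MAGE-D and MAGE-H proteins mostly fell: 8 of 10 passed as lower and 0 as higher. Their median was -2.24, and it was the same when BEX1 (0 reads in shSTN1, 193 in shControl) was set to its bound. The p75 receptor gene NGFR itself, chosen after its value was seen, had 65, 67 and 74 reads in shSTN1 and 85, 53 and 78 in shControl and did not pass (-0.03, adjusted p = 0.904). BEX3, a p75-associated protein gene, stood at 63.1 ± 6.64 CPM in shSTN1 and 218 ± 6.90 CPM in shControl (-1.79). BEX2 had a log2 fold change of -2.74. The homeobox genes MSX2 (-2.36) and DLX5 (-4.50), whose products bind MAGED1, were lower too. Their background share was 38.5% of all genes lower, and the embryonic kidney line markers moved the same way, at 80.7 to 84.0 CPM in shSTN1 and 603 to 692 CPM in shControl.

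Among WASH and retromer genes, which sort endosomal cargo and on which MAGEL2 acts, 4 of 10 were higher and 3 lower (median 0.14). The share that passed was 70.0%, near the 74.1% of all tested genes (35.6% higher and 38.5% lower). VPS29 had a log2 fold change of 0.89 and VPS26B of 0.38, whereas WASHC1 had -0.91 and WASHC5 -0.50. The DNA methylation machinery, which keeps type I promoters silent in normal tissue, had 5 of 15 genes higher and 7 lower (median -0.08). DNMT3B, a de novo methyltransferase, stood at 26.4 ± 1.67 CPM in shSTN1 and 104 ± 5.55 CPM in shControl (-1.98, adjusted p = 1.62e-20). TET1, a dioxygenase that oxidises methylcytosine, had 4.75 ± 1.14 CPM in shSTN1 and 27.9 ± 4.40 CPM in shControl (-2.55). UHRF1, which recruits the maintenance enzyme, had -0.83, and the reader gene MBD2 0.92. DNMT1, the maintenance methyltransferase, was chosen after its value was seen and did not pass (382 ± 6.09 CPM in shSTN1 and 403 ± 5.25 CPM in shControl, adjusted p = 0.254). DNA methylation itself was not measured in these libraries.

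Other cancer-testis families on the X chromosome were also nearly silent. Of 79 genes (GAGE, XAGE, PAGE, SSX, CT45 and others), 18 had a read in any library and 2 were tested. SAGE1 had 0 reads in each shSTN1 library and 55, 41 and 44 in the shControl libraries, at least 45.4-fold lower. CT45A10, 1 of several near-identical CT45 copies and uncertain for that reason, had 0 reads in shSTN1 and 94 in shControl, at least 30.5-fold lower. Of 20 tested cancer-testis genes of other families, 10 rose and 5 fell (median 0.26). The helicase gene DDX43 stood at 31.8 ± 4.27 CPM in shSTN1 and 7.19 ± 0.726 CPM in shControl (2.14, adjusted p = 1.16e-16). The meiotic gene TEX15 (-4.54), the placental gene PLAC1 (-4.35) and the testis lactate dehydrogenase gene LDHC (-5.16) were lower. These 15 of 20 lie close to the 74.1% that passed among all tested genes.

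**Figure D5:**
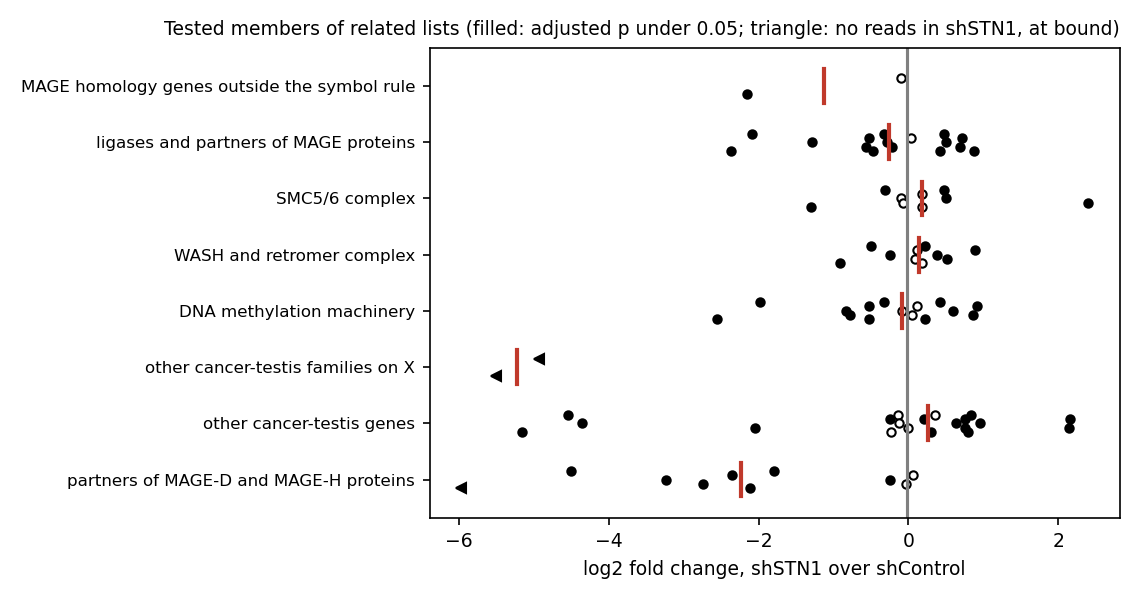
The log2 fold change of shSTN1 over shControl for tested members of the related lists. Filled points passed the adjusted p of 0.05, open points did not, triangles are SAGE1, CT45A10 and BEX1 at the bound given by 3 reads, red bars are list medians, and the grey line is the median of all tested genes at -0.03.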

How the data were processed

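Total RNA of 6 libraries was extracted with Trizol and prepared with the NEBNext Ultra kit, per the labels' protocols. The authors deposited raw read counts per gene; per the submitters' processing notes, cutadapt, FastQC, STAR 2.7.2b, featureCounts 2.0.1 and GRCh38 were used. For the strand setting and for reads with several matches, nothing was given in the sources used here. Of 60668 rows, 45 second pseudoautosomal copies were left out. Totals ran from 17357223 to 23336942 counts per library. GENCODE 29 gave coordinates, classes and exon lengths for 58516 genes.

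Counts were fitted with edgeR 4.0.16 (R 4.3.3; filterByExpr, TMM, robust quasi-likelihood test, no covariates) and adjusted by Benjamini and Hochberg over 17451 genes. CPM used TMM-scaled library sizes. SEs are of the difference of mean log2 CPM (prior count 2). Intervals came from limma 3.58.1 (voom) or exact binomial and Wilson limits (95%). Simulated counts (17001 genes) recovered 74% of 1.5-fold and 88% of 2-fold changes, and 3.72% of 188 calls were false. In the simulation 50 genes were changed at each of the folds 1.5, 2, 4 and 8, whereas 74.1% of tested genes passed in the data. These rates therefore need not hold for the data. No replicate pair agreed within counting noise (chi-square over degrees of freedom, 2.88 to 8.06). Stretches of 50 and 100 bases were compared between GENCODE 29 transcripts.

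Members and lists were chosen with earlier results of these data known. Every member is accounted for, and members with at least 1 CPM in either group are given in full. From each related list up to 4 genes past the threshold with the smallest adjusted p are named; STN1 is named as the target, and genes outside this rule, among them NSMCE3, NDN and the markers listed at or near 0 reads, were chosen after their values were seen. Some genes that this rule selects are not reported here. Alternatives were RLE and upper-quartile factors, other filters, protein-coding genes alone, DESeq2 1.42.0, limma-voom, the replicate block, a threshold of 0.01 and leaving out each library. Figures used matplotlib 3.10.9.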

Additional observations from a re-analysis of the deposited data

How the results depend on the processing

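The direction and call of MAGEA4, MAGED1, MAGED2, MAGEF1 and MAGEH1 held under all 14 alternatives that refitted the model. TMM and the other scalings used assume that most genes do not differ, whereas 74.1% of tested genes passed. Over all genes, CPM summed to 1070000 to 1080000 in shSTN1 and 924000 to 941000 in shControl. Scaling by raw totals was not among the alternatives, and a small difference such as that of MAGEF1 or STN1 may depend on the scaling. The gap between the type I sums may depend on it too. The number of type I members called was 3 without a low-count filter (MAGEA4 higher, MAGEA3 and MAGEA11 lower), and 2 by DESeq2, also unfiltered (MAGEA4 and MAGEA11), against 1; both tested 34967 genes in place of 17451, and DESeq2 also changed the test. Leaving out 1 library gave 1 to 2, since a looser filter then admitted MAGEA3, whose log2 fold change was -3.49 (adjusted p = 9.06e-04) without shSTN1 replicate 2 and -1.99 (adjusted p = 0.0103) without shControl replicate 2. MAGEA3 was admitted but did not pass without shSTN1 replicate 1 (-1.11, adjusted p = 0.138) or 3 (-1.19, adjusted p = 0.0991). By DESeq2 MAGEA3 had an adjusted p of 0.119. MAGEA6 ranged from -0.03 to 0.17 with 1 library left out, and turned to -0.03 without shControl replicate 3 (adjusted p = 0.948). MAGEE1 was lost without shSTN1 replicate 2 (-0.27) and at a threshold of 0.01, and the cause was not tested. With the replicate block, 12742 genes and 6 members passed, and no member's call changed. Same-numbered libraries showed correlations of -0.0491, 0.0778 and -0.061 in their deviations from the group means, too low to treat them as pairs. All members called numbered 5 to 9, 9 without the filter. Genes with under 10 reads per library are limited by depth.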

Other observations

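Members with few reads did not behave alike across the shSTN1 libraries. The 24 type I genes that missed the filter summed to 8, 24 and 7 reads in shSTN1 replicates 1, 2 and 3, against 53, 20 and 32 in the shControl libraries. Most of the 24 reads in shSTN1 replicate 2 were the 11 of MAGEA3 and the 7 of MAGEA12, which lie near each other on Xq28. MAGEA12 transcripts share 3.54% of stretches of 100 bases with MAGEA2B. The source of these reads was not tested.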
